A study of Mus musculus with 8 samples.

Results

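Retinoic acid is made from vitamin A inside cells: retinol is oxidised to retinal, and the retinal dehydrogenases encoded by Aldh1a1, Aldh1a2 and Aldh1a3 oxidise retinal to retinoic acid. DHRS3 reduces retinal back to retinol, the cellular binding protein CRABP2 carries retinoic acid towards its nuclear receptors (among them RARB and RARG), the membrane receptor STRA6 takes up retinol, and CYP26B1 breaks retinoic acid down. Mesothelial cells (MCs), which line the peritoneal cavity, are a classical site of Aldh1a2 expression, and their embryonic counterparts supply retinoic acid to neighbouring tissues. Rarb, Dhrs3 and the Cyp26 genes are known as genes that respond to retinoic acid.

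These 9 genes were followed in RNAseq of primary MCs, of which 8 had values among the 13687 genes of the table and all 8 were tested. The expression of Stra6 was not analysed here. The genes were selected by name, Aldh1a1 because it was low in CAV1-/- cells and Aldh1a3 because it was high on stretch, so the differences that selected these 2 genes are described without a test. The remaining members were chosen with earlier results of these data known.

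The MCs were digested from the parietal peritoneum of WT mice and of CAV1-/- littermates (strain B6.Cg-CAV1tm1mls/J), which carry a deletion of the caveolin-1 gene in every cell. Mice of both genders were used, and their age is not given in the sources used here. Confluent cultures were kept static or stretched cyclically over 24 h, to ask how stretch and CAV1 act on the cells. The 8 libraries form 4 groups of 2 cultures (WT static, WT stretched, CAV1-/- static and CAV1-/- stretched), and each of the 4 animals gave 1 static and 1 stretched culture. With 2 animals per genotype, an exact permutation test of 2 against 2 cultures cannot give a two-sided p below 0.333.

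Values are TMM-normalized CPM, reads of a gene scaled by the TMM-adjusted size of its library, and 100% of them came out as whole reads. Library totals ranged from 9777738 to 21203938 reads, with every stretched library deeper than every static library. Cav1 itself was at 764 and 275 in the static WT cultures, 570 and 247 in the stretched WT cultures, 34.5 and 18.9 in the static CAV1-/- cultures and 20.0 and 12.8 in the stretched CAV1-/- cultures. The labelled cell type was checked on 13 mesothelial markers, all present and none at 0 in any library, whose summed level was 3120 to 4120 in WT and 925 to 1180 in CAV1-/- cultures. The sum of 13 leukocyte markers was 5290 and 5270 in the static and stretched cultures of CAV1-/- replicate 1, against 83.2 to 513 in the 6 other libraries, so that this animal stood apart in both conditions. Replicate numbers differed in WT too, with 488 and 513 in WT replicate 1 and 83.2 and 88.3 in WT replicate 2, beside 340 and 376 in CAV1-/- replicate 2. In bulk RNA, fewer cells of a type and less RNA per cell cannot be told apart.

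The sequences shown here are the retinoic acid response elements near the start sites of these genes and the beginning of the coding sequences of Aldh1a1 and its close copy Aldh1a7. A retinoic acid response element is classically a direct repeat of 2 hexamers with a spacer of 5 or 2 bases. The RefSeq promoters of GRCm38.p6 (250 bases before to 50 bases after each start) were searched on both strands for repeats of the hexamer AGGTCA, with its variant AGTTCA, its variant GGGTCA and its variant GGTTCA also accepted at either place. Promoters were found for 7 of the 9 members (14 promoters), and for Cyp26a1, the other well known breakdown enzyme. None was found for Aldh1a3 and Crabp2, which were therefore not searched. A repeat with a 5-base spacer occurred in 32 of 32851 promoters of the table (0.0974%), and with a 2-base spacer in 88 (0.268%). Among the members searched only 1 promoter of Rarb held such a repeat, and among the other retinoid genes searched only that of Cyp26a1. Both are printed 5′ to 3′ on the strand of the gene, with the hexamers in capitals. The Rarb stretch is chr14:16575488-16575554 (minus strand), with the repeat at positions -53 to -37 from the start, and the Cyp26a1 stretch is chr19:37697751-37697817 (plus strand), with the repeat on the opposite strand at -32 to -16.
Rarb: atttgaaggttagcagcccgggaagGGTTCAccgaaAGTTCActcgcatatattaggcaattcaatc
Cyp26a1: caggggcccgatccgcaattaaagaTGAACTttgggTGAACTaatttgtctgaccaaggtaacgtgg

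Aldh1a1 (chromosome 19, 20492715 to 20643465, plus strand, in GENCODE M21 on GRCm38) lies next to Aldh1a7 (20692953 to 20727562, minus strand), a rodent copy. Their coding sequences, 1506 bases each, were 91.6% identical, whereas Aldh1a1 was 68.8% identical to Aldh1a2 and 67.4% to Aldh1a3. Coding bases 1 to 120 are shown for both, with the 10 bases that differ in capitals. They come from exons 1 and 2 (20602012 to 20602077 and 20610913 to 20610966 for Aldh1a1, 20727447 to 20727512 and 20727009 to 20727062 for Aldh1a7).
Aldh1a1: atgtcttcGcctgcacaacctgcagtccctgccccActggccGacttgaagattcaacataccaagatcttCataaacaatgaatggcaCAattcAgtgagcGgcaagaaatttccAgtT
Aldh1a7: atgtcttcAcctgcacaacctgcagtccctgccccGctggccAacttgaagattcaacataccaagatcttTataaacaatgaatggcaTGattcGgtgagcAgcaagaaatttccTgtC
Of the 2006 different 61-base words in Aldh1a7 transcripts, the read length of the study, 100 (4.99%) also occur in Aldh1a1, so the reads of the 2 genes could be told apart over most of their length but not all of it. No 61-base word was shared between Aldh1a1, Aldh1a2 and Aldh1a3.

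Aldh1a1 was the member with the widest range. It was at 227 and 189 CPM in static WT MCs, 61.3 and 118 in stretched WT MCs, 12.1 and 15.6 in static CAV1-/- MCs, and 2.91 and 3.61 in stretched CAV1-/- MCs. No 2 of the 4 groups overlapped, and the level stepped down from WT to CAV1-/- and, within each genotype, from static to stretched. The group means were 208 ± 26.9 (SD, n = 2), 89.8 ± 40.3, 13.9 ± 2.48 and 3.26 ± 0.496 in the same order. The lowest value rested on 60 reads. The mean was 15.0-fold lower in CAV1-/- than in WT MCs without stretch and 27.5-fold lower with stretch (log2 fold changes of −3.82 and −4.34 on the log2(CPM + 1) scale, SE 0.321), the differences for which the gene was selected.

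By animal, the static WT mean of Aldh1a1 was 17.2-fold above CAV1-/- replicate 1 and 13.3-fold above replicate 2, and the stretched WT mean 30.9-fold and 24.9-fold. Mesothelial markers differed by genotype too: the log2 fold change was negative for 13 of 13 in both conditions (median −2.07 static and −2.50 stretched, against −0.01 and 0 over all genes tested), although the mean CPM of Krt19 was 1.25-fold higher in stretched CAV1-/- than in stretched WT cultures. Of the 13, Gpm6a alone differed by more than Aldh1a1 in both conditions, and Krt7 did so without stretch. The rest differed by less than Aldh1a1 in both. The mean was lower in CAV1-/- MCs by 20.4-fold static and 34.3-fold stretched for Gpm6a, by 15.4-fold and 19.4-fold for Krt7 and by 11.6-fold and 18.2-fold for Lrrn4, but by 1.35-fold and 1.59-fold for Pdpn and 1.08-fold and 1.18-fold for Wt1. The part of the mesothelial and leukocyte markers in the Aldh1a1 values was not tested. Nor was that of the fibroblast markers (6 of 7 with values, summed level 401 to 1800 in WT and 124 to 1660 in CAV1-/- cultures) or of the endothelial markers (4 of 6 with values, of which Emcn reached 0 in at least 1 library, 36.0 to 68.1 and 12.1 to 64.6). The fibroblast sum also split by replicate number. In static WT, stretched WT, static CAV1-/- and stretched CAV1-/- cultures it was 871, 401, 267 and 124 in replicate 1, and 1800, 1640, 1660 and 1360 in replicate 2.

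**Figure D1:**
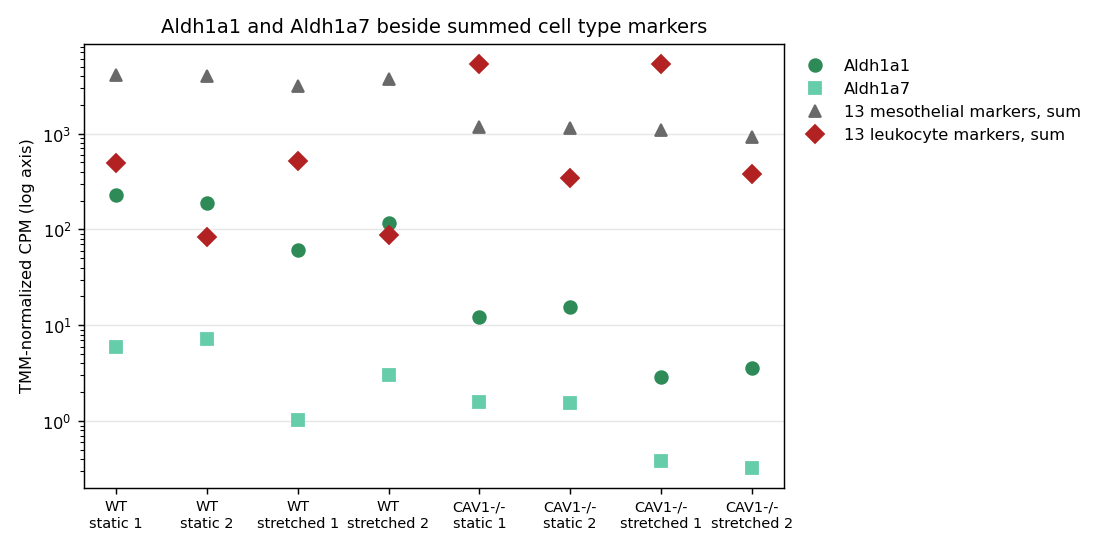
TMM-normalized CPM (log axis) of Aldh1a1, Aldh1a7 and the summed mesothelial and leukocyte markers in each of the 8 libraries, 1 point per library. Aldh1a1 drops from 189 to 227 in static WT cultures to 2.91 to 3.61 in stretched CAV1-/- cultures, while the leukocyte sum is 5290 and 5270 in the 2 cultures of CAV1-/- replicate 1 and at most 513 elsewhere.

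Aldh1a2 was the steady member of the trio. It was at 162 and 120 CPM in static WT, 258 and 118 in stretched WT, 105 and 133 in static CAV1-/- and 161 and 154 in stretched CAV1-/- MCs. The genotypes overlapped in both conditions (log2 fold changes of −0.24 and −0.15, SE 0.368, limma adjusted p = 0.932 and 1). The mean was 1.33-fold higher on stretch in both genotypes, with overlapping cultures in WT and none in CAV1-/- MCs (log2 0.32 and 0.42, limma adjusted p = 1 for both), and the interaction was 0.10 (SE 0.52, adjusted p = 1).

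Aldh1a3 was at 3.43 and 17.4 CPM in static WT, 17.3 and 54.2 in stretched WT, 2.97 and 2.88 in static CAV1-/- and 32.9 and 31.0 in stretched CAV1-/- MCs. It was higher on stretch in every animal, by 5.03-fold and 3.11-fold in the WT animals and by 11.1-fold and 10.8-fold in the CAV1-/- animals, which is the pattern it was selected for. Static CAV1-/- cultures lay 3.57-fold below the static WT mean without overlap, but the WT cultures were far apart and the difference did not pass the test (log2 −1.20, SE 0.757, limma adjusted p = 0.801). With stretch the genotypes overlapped (log2 0.05, adjusted p = 1). The difference between the genotypes in this change did not pass the interaction test (log2 1.26, SE 1.07, limma adjusted p = 1, and adjusted p = 0.947 with the animal as a block).

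Compared per kilobase of the longest mRNA, the make-up of the 3 dehydrogenase transcripts shifted from Aldh1a1 towards Aldh1a2 and Aldh1a3. Aldh1a1 supplied 57% and 57.9% of the summed CPM per kb in static WT cultures, 18.0% and 42.5% in stretched WT, 9.84% and 9.99% in static CAV1-/- and 1.5% and 1.95% in stretched CAV1-/- cultures. Aldh1a2 supplied 42.4% and 38.4% in static WT, 78.6% and 44.2% in stretched WT, and between 86.6% and 88.7% in the 4 CAV1-/- cultures. Aldh1a3 supplied between 0.590% and 3.66% in the 4 static cultures, and 3.46%, 13.3%, 11.6% and 11.4% in the stretched cultures of WT replicates 1 and 2 and CAV1-/- replicates 1 and 2. The summed level was 118 to 169 CPM per kb in the WT and 52.2 to 82.0 in the CAV1-/- cultures. These shares contain the differences that selected Aldh1a1 and Aldh1a3 and are given as a description. They depend on the length taken for Aldh1a1, which is 2358 bases for its longest mRNA and 4937 bases for all annotated exons together: with all exons, Aldh1a1 made up 38.8% and 40.2% in static WT MCs, below Aldh1a2.

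**Figure D2:**
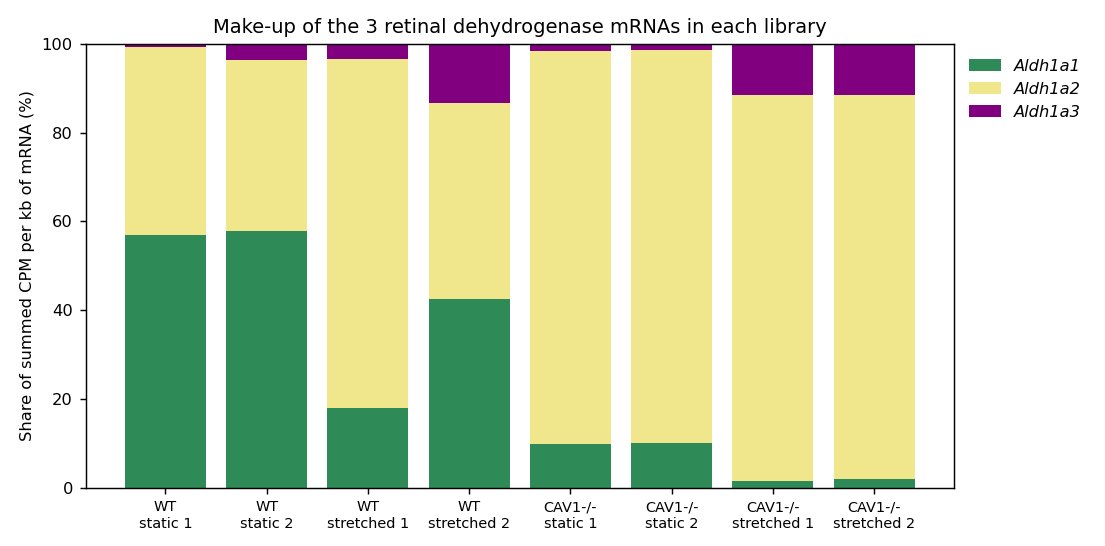
Share (%) of Aldh1a1, Aldh1a2 and Aldh1a3 in their summed CPM per kb of longest mRNA, 1 stacked bar for each of the 8 libraries. Aldh1a1 goes from 57% and 57.9% in static WT to 1.5% and 1.95% in stretched CAV1-/- cultures, where Aldh1a2 makes up 86.9% and 86.6%.

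Dhrs3, which turns retinal back into retinol, was lower on stretch in every animal. It was at 13.1 and 24.9 CPM in static WT, 7.84 and 12.5 in stretched WT, 19.4 and 24.8 in static CAV1-/- and 12 and 11.3 in stretched CAV1-/- MCs. Stretched and static cultures did not overlap in either genotype, with a mean 1.87-fold lower in WT (log2 −0.81) and 1.89-fold lower in CAV1-/- MCs (log2 −0.85, SE 0.347 for both). Neither passed the test within its genotype (limma adjusted p = 1, and with the animal as a block 0.167 and 0.153). The genotypes overlapped in both conditions (log2 0.26 and 0.21, adjusted p = 0.923 and 1).

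Among the binding protein and receptors, Crabp2 was at 28.8 and 13.2 CPM in static WT, 59.6 and 26.3 in stretched WT, 18.5 and 16.8 in static CAV1-/- and 16.0 and 23.4 in stretched CAV1-/- MCs. It was 2.07-fold and 1.99-fold higher on stretch in the WT animals, and 0.861-fold and 1.39-fold of the static level in the CAV1-/- animals. In stretched MCs its mean was 2.18-fold lower in CAV1-/- than in WT without overlap (log2 −1.0, SE 0.487, limma adjusted p = 0.882), and its interaction was not past the threshold (log2 −0.86, SE 0.689, adjusted p = 1, and 0.947 with the animal as a block).

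Rarb, the receptor with the repeat shown above, was a low transcript with higher values in CAV1-/- MCs. It was at 0.979 and 0.888 CPM in static WT, 0.986 and 0.739 in stretched WT, 2.88 and 3.70 in static CAV1-/- and 1.75 and 3.78 in stretched CAV1-/- MCs, from 11 to 20 reads in WT and 35 to 69 reads in CAV1-/- libraries. All 4 CAV1-/- cultures were above all 4 WT cultures. The mean was 3.53-fold higher without stretch (log2 1.14, SE 0.322) and 3.20-fold higher with stretch (log2 0.96), and neither passed the test over all genes (limma adjusted p = 0.366 and 0.642). Without CAV1-/- replicate 1, the log2 fold changes were 1.28 and 1.36 (adjusted p = 0.366 and 0.428). On stretch Rarb overlapped in both genotypes (log2 −0.06 and −0.24, adjusted p = 1).

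Rarg, at a higher level, varied little, with 60.6 and 64.8 CPM in static WT, 56.0 and 54.6 in stretched WT, 53.3 and 68.6 in static CAV1-/- and 46.4 and 54.5 in stretched CAV1-/- MCs. It was lower on stretch in 4 of 4 animals, by 1.08-fold to 1.26-fold.

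Cyp26b1, the breakdown enzyme, was near the limit of counting in most libraries. It was at 0.140 CPM (2 reads) and 4.84 CPM (60 reads) in static WT, 0.690 and 1.23 in stretched WT, 0.989 and 1.54 in static CAV1-/- and 0.582 and 0.602 in stretched CAV1-/- MCs. A count of 3 reads corresponds to 0.146 to 0.308 CPM, so the first WT culture was under this floor. The static WT cultures differed more from each other than any pair of groups did, and the CAV1-/- group means were 1.27 and 0.592 without and with stretch (2.14-fold, no overlap, log2 −0.50, SE 0.725, limma adjusted p = 1).

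**Figure D3:**
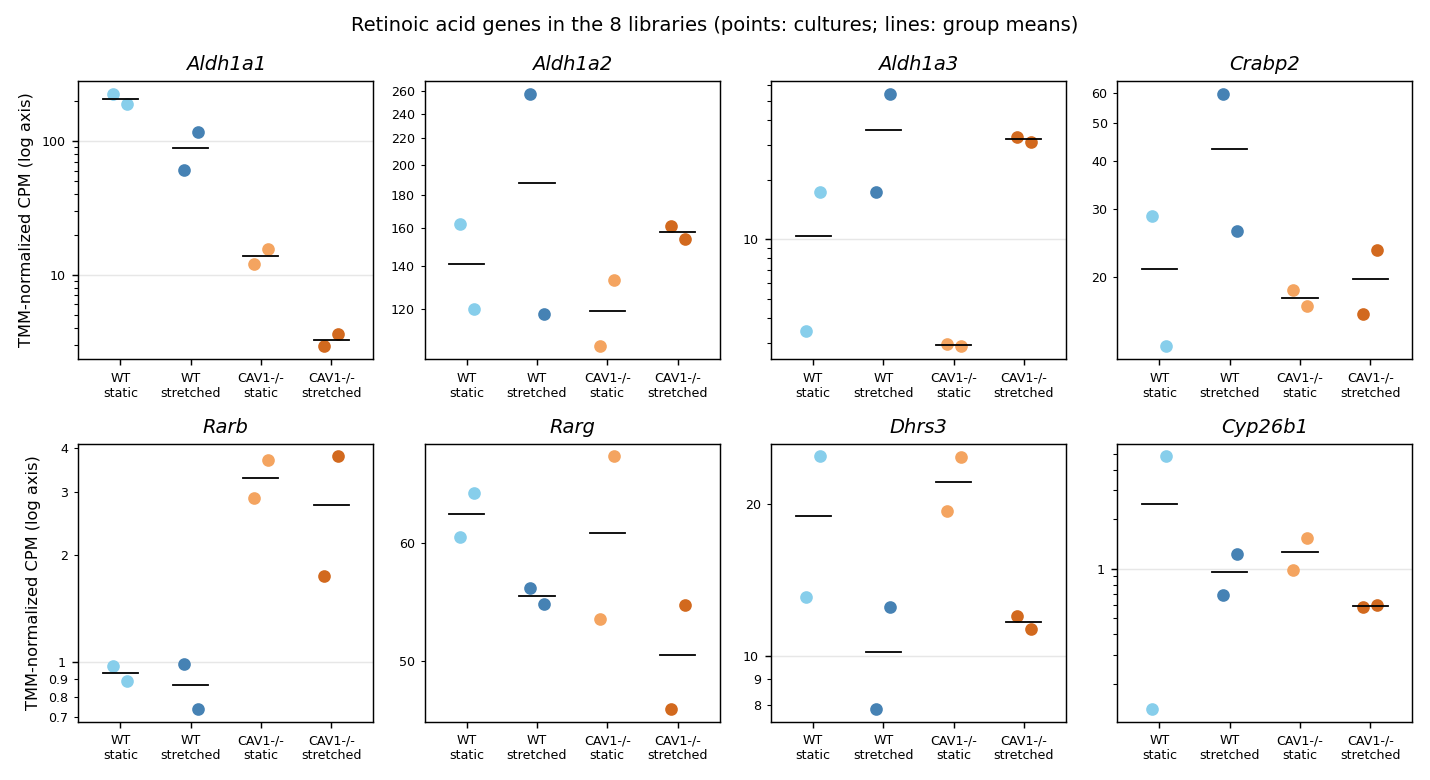
TMM-normalized CPM (log axes) of the 8 members in the 4 groups, with 1 point per culture and a line at the mean of 2 cultures. Aldh1a1 separates all 4 groups, all 4 Rarb points of CAV1-/- cultures (1.75 to 3.78) lie above those of WT cultures (0.739 to 0.986), and Rarg stays between 46.4 and 68.6.

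Ordered per kilobase of mRNA, static WT MCs had Aldh1a1 (80.1 to 96.2 CPM per kb) above Aldh1a2 (53.1 to 71.7), followed by Crabp2 (14.2 to 30.9) and Rarg (20.5 to 22.0), whose ranges overlapped, then Dhrs3 (5.60 to 10.7), Aldh1a3 (0.996 to 5.07), Cyp26b1 (0.0311 to 1.08) and Rarb (0.286 to 0.315), the last pair again overlapping. In stretched CAV1-/- MCs Aldh1a2 led (68.2 to 71.3), Crabp2 (17.1 to 25.1) and Rarg (15.7 to 18.4) overlapped, and Aldh1a3 (9.01 to 9.55) stood above Dhrs3 (4.85 to 5.15) and Aldh1a1 (1.23 to 1.53). The first place of Aldh1a1 in static WT MCs holds with the longest mRNA as length, and turns to Aldh1a2 with all annotated exons.

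The differences were tested by limma over all 13665 genes that passed the filter, with calls at an adjusted p under 0.05. Leaving out the gene that each comparison had selected, 0 of 7 members were called for stretch in WT MCs, for stretch in CAV1-/- MCs, for genotype without stretch and for genotype with stretch, where 0%, 0%, 0.0732% and 0.0585% of all genes tested were called, and 0 of 8 for the interaction (0% of all genes). At an unadjusted p under 0.05 the counts were 1 (Aldh1a1), 2 (Aldh1a1 and Dhrs3), 1 (Rarb), 1 (Rarb) and 0 in the same order, where 2.27%, 2.09%, 8.17%, 6.26% and 0.483% of all genes tested had such a p. The quasi-likelihood test of edgeR called 0 members in each, and DESeq2 called 1, Aldh1a1 for stretch in CAV1-/- MCs (log2 −2.10, adjusted p = 0.000732). Without the test, 3 of 7 members did not overlap on stretch in WT MCs (Aldh1a1, Rarg and Dhrs3, all lower, against 31.1% of all genes in either direction), and 4 of 7 in CAV1-/- MCs (Aldh1a2 higher and Aldh1a1, Dhrs3 and Cyp26b1 lower, against 24.3%). By genotype 2 of 7 did not overlap without stretch (Rarb higher and Aldh1a3 lower, against 36.9%) and 4 of 7 with stretch (Rarb higher and Crabp2, Rarg and Cyp26b1 lower, against 30.5%).

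Because each animal gave a static and a stretched culture, the change on stretch was also estimated over the 4 animals together, a comparison added after the values had been seen. Aldh1a1 was lower by 3.70-fold and 1.60-fold in the WT animals and by 4.16-fold and 4.33-fold in the CAV1-/- animals. Dhrs3 was lower by 1.67-fold and 2.00-fold in the WT and 1.61-fold and 2.19-fold in the CAV1-/- animals. In this fit Aldh1a1 (log2 −1.53, SE 0.196, limma adjusted p = 0.0167) and Dhrs3 (log2 −0.83, SE 0.104, adjusted p = 0.0164) fell, so that 2 of 7 members were called where 2.25% of all genes tested were called. Without the animal as a block neither was called (adjusted p = 0.452 and 0.703), nor was either without CAV1-/- replicate 1 (0.0934 and 0.0670) or without CAV1-/- replicate 2 (0.0728 and 0.0752). Dhrs3 was also lost without WT replicate 2 (0.0532), and both without the intensity trend (0.0581 and 0.0562). In this fit 9 of 13 mesothelial markers were lower on stretch (median log2 −0.45, against −0.01 over all genes), with 3 called, all lower, and 4 of 6 fibroblast markers were lower (median log2 −0.48), with 0 called by limma, edgeR or DESeq2, 2 at an unadjusted limma p under 0.05 and the largest difference for Lum (log2 −0.94, adjusted p = 0.234). The part of either in the values of Aldh1a1 and Dhrs3 was not tested. A sign flip over 4 animals cannot give a two-sided exact p below 0.125.

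In the same fit Aldh1a2 (log2 0.37, adjusted p = 0.137), Crabp2 (log2 0.55, adjusted p = 0.161), Rarg (log2 −0.22, adjusted p = 0.111), Cyp26b1 (log2 −0.45, adjusted p = 0.405) and Rarb (log2 −0.15, adjusted p = 0.604) were not called. Aldh1a1, Rarg and Dhrs3 were lower in 4 of 4 animals, as were 16.9% of all genes tested, and Aldh1a3 was higher in 4 of 4 animals, as were 14.5%. The change of Aldh1a3 was 2.44 on the log2 scale (SE 0.254).

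**Figure D4:**
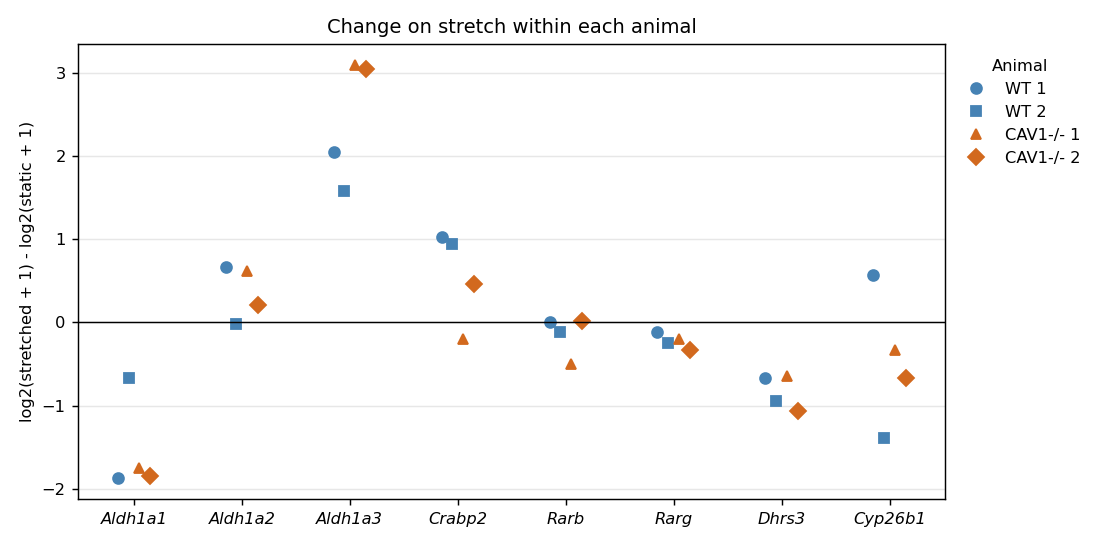
Difference of log2(CPM + 1) between the stretched and the static culture of each animal for the 8 members, with blue marks for the 2 WT and orange marks for the 2 CAV1-/- animals. Aldh1a1, Rarg and Dhrs3 lie below 0 in 4 of 4 animals and Aldh1a3 lies above 0 in 4 of 4, between 1.58 and 3.10.

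The wider retinoid pathway was followed in 66 further genes of 6 lists, of which 47 had values and were tested. None of the 47 was called by limma, edgeR or DESeq2 in the 4 comparisons between groups or in the interaction, where 3, 2, 5, 3 and 0 of them had an unadjusted limma p under 0.05 (stretch in WT, stretch in CAV1-/-, genotype without and with stretch, interaction), beside the shares of all genes given above. Their median log2 fold change was −0.11 on stretch in WT and −0.04 in CAV1-/- MCs, −0.06 for genotype without stretch and 0.03 with stretch, against −0.02, 0, −0.01 and 0 over all genes. Groups without overlap and with a log2 fold change of at least 1 in size were found for 1 of 47 genes on stretch in WT and 0 of 47 in CAV1-/- MCs (0.783% and 0.666% of all genes tested), and for 4 of 47 and 2 of 47 by genotype without and with stretch (5.82% and 4.42%).

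Aldh1a7, the copy of Aldh1a1, moved in the same directions. It was at 5.88 and 7.27 CPM in static WT, 1.04 and 3.02 in stretched WT, 1.57 and 1.54 in static CAV1-/- and 0.388 and 0.328 in stretched CAV1-/- MCs, the last from 8 and 6 reads. Its mean was 3.24-fold lower on stretch in WT, 4.23-fold lower in CAV1-/- than in WT MCs without stretch and 5.66-fold lower with stretch (limma adjusted p = 1, 0.234 and 0.629). Over the 4 animals Aldh1a7 was called (log2 −1.15, SE 0.179, limma adjusted p = 0.0283), but not without CAV1-/- replicate 2 and not without the animal as a block. Reads that fit both genes may be shared between them.

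Crabp1, a second cellular binding protein of retinoic acid, was at 1.40 and 10.4 CPM in static WT, 4.09 and 15.3 in stretched WT, 31.0 and 28.1 in static CAV1-/- and 25.1 and 21.7 in stretched CAV1-/- MCs. All CAV1-/- cultures were above all WT cultures, by 5-fold without and 2.41-fold with stretch in the means (log2 2.54 and 1.42, SE 0.817, limma adjusted p = 0.460 and 0.936). Rdh10, which oxidises retinol to retinal, had 7.28 and 14.1 CPM in static WT and 14.9 and 31.5 in static CAV1-/- MCs (log2 1.02, SE 0.513, adjusted p = 0.711), and Lipe, a lipase that also acts on retinyl esters, 9.44 and 11.2 against 3.30 and 5.86 (log2 −1.06, SE 0.285, adjusted p = 0.339).

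Of the 6 lists, the carriers, uptake and storage genes had values for 6 of 11 genes, the enzymes of retinol and retinal for 11 of 19, the breakdown enzymes for 1 of 2, the receptors and coregulators for 9 of 10, the genes induced by retinoic acid for 7 of 10 and the other aldehyde dehydrogenases for 13 of 14. Cyp26a1, whose promoter is shown above and which is strongly induced by retinoic acid in many cells, was at 0.560 and 1.37 CPM in static WT, 1.23 and 1.29 in stretched WT, 0 and 1.64 in static CAV1-/- and 0 and 2.74 in stretched CAV1-/- MCs. Both libraries at 0 are those of CAV1-/- replicate 1, where a count of 0 allows up to 0.247 and 0.146 CPM. Among the genes induced by retinoic acid, 2 of 7 were higher and 5 lower on stretch in WT, and 4 higher and 3 lower in CAV1-/- MCs. This count leaves out Rarb, Dhrs3 and the Cyp26 genes. Rarb, Dhrs3 and Cyp26b1 were lower on stretch in WT (log2 −0.06, −0.81 and −0.41) and in CAV1-/- MCs (−0.24, −0.85 and −0.50). Cyp26a1 was higher in both (log2 0.23 and 0.25). Within the list of genes induced by retinoic acid, Tgm2 separated replicate 1 from replicate 2 in both genotypes, more than it separated groups. It was at 400 and 235 CPM in WT replicate 1 and 590 and 550 in CAV1-/- replicate 1, against 67.3, 41.6, 44.8 and 43.2 in the static and stretched cultures of WT and CAV1-/- replicate 2. Of the receptors, Rara ranged from 35.6 to 42.3 CPM and Rxrb from 30.6 to 40.6 CPM over the 8 libraries, and Rxra from 43.6 to 92.4 CPM, with 84.5 and 92.4 in static WT against 65.7 and 56.6 in static CAV1-/- MCs (log2 −0.53, SE 0.252, limma adjusted p = 0.693). For the receptors and coregulators, 1 of 9 was higher on stretch in WT and 7 of 9 in CAV1-/- MCs, and 9 of 9 had a positive interaction term (median log2 0.21, against 0.01 over all genes), with 0 of 9 called by limma, edgeR or DESeq2 and 0 of 9 at an unadjusted p under 0.05. This list leaves out the receptors Rarb and Rarg, which were counted among the members. Their interaction terms were negative (log2 −0.18 and −0.08), and both were lower on stretch in CAV1-/- MCs (log2 −0.24 and −0.26).

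Over the 4 animals 4 of the 47 genes were called, beside 2.25% of all genes tested. Besides Aldh1a7 these were 3 other aldehyde dehydrogenases, named after their values were seen. Aldh1b1, a mitochondrial enzyme, was at 8.04 and 9.04 CPM in static and 5.47 and 5.73 in stretched WT MCs, and at 11.9 and 12.1 in static and 7.18 and 8.48 in stretched CAV1-/- MCs (log2 −0.55, SE 0.0971, limma adjusted p = 0.0427). Aldh3b1 fell (log2 −0.60, SE 0.116, adjusted p = 0.0496), and Aldh1l2, the mitochondrial 10-formyltetrahydrofolate dehydrogenase, rose (log2 0.64, SE 0.12, adjusted p = 0.0464). None of these 4 genes was called without CAV1-/- replicate 2 or without the animal as a block, fits that called no gene at all.

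Genes whose level over the 8 libraries was most like that of Aldh1a1 and Aldh1a3 were listed among 10797 genes with a mean of at least 5 CPM, by Pearson's r of log2(CPM + 1). The libraries share animals and, for the stretched ones, greater depth, so r is given as a description. For Aldh1a1 they were Tfcp2l1 (r = 0.996), Dpp4 (0.995), Tmem151a (0.993), Eps8l2 (0.990) and Eps8 (0.989). Dpp4, a membrane peptidase, was at 154 and 111 CPM in static WT, 47.8 and 86.2 in stretched WT, 7.09 and 6.78 in static CAV1-/- and 0.825 and 2.19 in stretched CAV1-/- MCs. For Aldh1a3 they were Tmed8 (r = 0.942), Sh3bgrl2 (0.941), Orai3 (0.937), Yy1 (0.932) and Ranbp9 (0.925), and their range was narrower than that of Aldh1a3 itself, with Tmed8 between 32.1 and 44.4 CPM.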

How the data were processed

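RNA of 8 primary mouse MC cultures was measured as poly(A) RNAseq with an unstranded kit and 61-base single reads. After trimming (Cutadapt), the authors quantified genes with RSEM against the transcriptome of GRCm38 and scaled the estimates by TMM in edgeR. The deposited signal is TMM-normalized CPM of 13687 genes. Dividing a library's values by its smallest step returned whole reads (100% within a tolerance of 0.1). Totals were 9777738 to 21203938 reads, and the floor of 3 reads covers counting error only. Genes reaching a CPM of 1 in 2 or more libraries were tested (13665, 22 removed) by limma (version 3.58.1, R version 4.3.3) on log2(value + 1), with eBayes and an intensity trend, a mean for each group, without a replicate block, adjusted by Benjamini-Hochberg over all genes (4 residual degrees of freedom before moderation).

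The replicate block was the animal for stretch and interaction, where the labels give the same animal for a static and a stretched culture (deviations correlated at 0.703 in WT and 0.850 in CAV1-/-), and the replicate number for genotype. Alternatives were pseudocounts of 0.1 and 5, no filter, a mean of at least 5, median-of-ratios rescaling, no trend, the recovered reads in edgeR (quasi-likelihood, version 4.0.16) and in DESeq2 (version 1.42.0), the block, and each culture left out. The fit over 4 animals and the one without both cultures of CAV1-/- replicate 1 were added after the values had been seen. The members and lists were chosen with earlier results of these data known. Genes named outside the members are those of the lists that were called, or did not overlap with a log2 fold change of at least 1 in size, between groups, the 5 genes most like Aldh1a1 and Aldh1a3, and Cav1. Cyp26a1, Tgm2, Rara, Rxra, Rxrb, the single markers, the genes limited by depth and the genes called over 4 animals were named after their values were seen. The fits were tried on simulated counts drawn independently for each library, without an animal effect. Such counts cannot show how the fits behave on cultures that share an animal. Positions are from GENCODE M21 (GRCm38). Nothing says how the cultures of 1 genotype differ beyond the animal, so p-values measure the spread between these cultures.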

Additional observations from a re-analysis of the deposited data

Results flagged for a closer look

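Crabp1 differed in the direction of its change on stretch between the genotypes. It was higher on stretch in both WT animals (1.09 and 0.52 on the log2 scale) and lower in both CAV1-/- animals (−0.29 and −0.36), which gives an interaction of −1.13 (SE 1.16). The interaction did not pass the test over all genes (limma adjusted p = 1, and 0.947 with the animal as a block), and with 2 animals per genotype no permutation of the animals can pass the threshold.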

How the results depend on the processing

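The counts of members called in the 4 comparisons between groups and in the interaction stayed at 0 under every alternative run, with 1 exception: DESeq2 called 1 member, Aldh1a1, for stretch in CAV1-/- MCs (log2 −2.10, adjusted p = 0.000732). The count over the 4 animals was 2, and fell to 0 without the intensity trend and with no replicate block. With 1 animal left out it lay between 0 and 2, with 1 member called without WT replicate 2 and 0 without CAV1-/- replicate 1 or 2. The interaction of Aldh1a1 changed sign with a pseudocount of 5 (0.0427). Within the 4 comparisons between groups and the interaction, the replicate block changed no call of a member that was read. No test is read for the stretch change of Aldh1a3, which selected that gene. The block gave 246 and 110 genes called by genotype without and with stretch where the fit without it gave 10 and 8. In the genotype comparisons the block is the replicate number, which pairs different animals (deviations correlated at 0.522 and 0.484). Over all genes, DESeq2 called 3 and 7 genes for stretch, 309 and 237 for genotype and 779 over the 4 animals (main count 308), and edgeR 0, 0, 2, 6 and 289. Without the intensity trend 6 genes were called for genotype without stretch and 3 over the 4 animals, where no replicate block left 0. With 1 culture left out the genotype counts lay between 0 and 8, and with 1 animal left out the count over the animals was 130 without WT replicate 1, 145 without WT replicate 2, 4 without CAV1-/- replicate 1 and 0 without CAV1-/- replicate 2. Without both cultures of CAV1-/- replicate 1, 0 genes were called in any comparison between groups. Among the members and the retinoid and aldehyde dehydrogenase lists, library depth limits Rarb, Cyp26b1, Cyp26a1, Aldh1a7, Rdh5, Rdh12, Adh7, Nr2f1 and Aldh5a1. Each had fewer than 100 reads in 8 of 8 libraries.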
